A study of Mus musculus with 2 samples.

Results

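The neurexin, neuroligin and LRRTM genes encode cell-surface proteins that join the 2 sides of a synapse. The 9 genes described here are the neurexins Nrxn2 and Nrxn3, the neuroligins Nlgn1, Nlgn2 and Nlgn3, and the LRRTM genes Lrrtm1, Lrrtm2, Lrrtm3 and Lrrtm4, chosen by name out of 21474 protein-coding genes with a symbol. They were followed through TPM and expected counts of genes and through the share of each gene's expression given to each of its transcripts. Other genes of these families were not analysed here. All 9 were matched, and 60 transcripts were listed for them.

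The samples were 2 RNA-seq libraries from layer 5 of the cerebral cortex of a wild-type male mouse of the C57Bl6 strain (B6NCrl in the source label), aged 8 months. Each came from an area of about 8000 square microns, entered as 50 cells, and was prepared by a Smart-seq protocol after laser capture, with spike-in RNA. The labels call the libraries biological replicates 1 and 2 and give both the same donor, so each SD is a spread between areas of 1 animal. There was 1 group and no contrast of conditions, and differences between the areas have 1 library a side and no test.

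Neurexins sit in the presynaptic membrane and reach across the cleft to neuroligins, LRRTM proteins and other partners, several of which compete for the same outer domain. Each neurexin gene makes a long alpha form from an upstream start and a short beta form from a start inside the gene, and both forms carry alternative segments, of which splice site 4 lies in the domain that partners bind. LRRTM1 and LRRTM2 bind neurexins without the splice site 4 insert, and cerebellins bind neurexins that have it. Neuroligins bind either kind with an affinity that their own inserts alter. Neuroligin 1 is known from excitatory synapses, neuroligin 2 from inhibitory synapses and neuroligin 3 from both, while LRRTM proteins are known from excitatory synapses.

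Depth and cell makeup were those of a mixed tissue sample rich in neurons. Totals were 26059117 and 28276843 expected counts, which are estimated read numbers that need not be whole. All 3 neuronal, all 3 excitatory and all 4 layer 5 markers reached 1 TPM in both libraries, as did those of astrocytes, oligodendrocytes, microglia, endothelial cells and GABAergic neurons, while the 2 oligodendrocyte precursor markers were under 1 TPM in both. TPM scales the reads of a gene by transcript length and by the library total, so levels of different genes are compared on it except where another measure is named.

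All 9 genes were expressed in both areas, and Nrxn3 stood highest. All 9 reached 1 TPM in both libraries, against 51.5% of all protein-coding genes, and 8 reached 5 TPM in both. By mean TPM the order was Nrxn3, Nrxn2, Lrrtm1, Lrrtm3, Nlgn3, Nlgn1, Lrrtm2, Nlgn2 and Lrrtm4. Of the 8 neighbouring pairs in that order, 5 had overlapping ranges of the 2 libraries and by that measure did not differ beyond their spread. Compared within each library, 1 of these pairs kept its order, with Lrrtm3 above Nlgn3 (21.1 against 15.01 TPM in replicate 1, 25.4 against 24.2 TPM in replicate 2). The others changed order between the libraries. The pairs whose ranges lay apart were Nrxn3 above Nrxn2, Nlgn1 above Lrrtm2, and Nlgn2 above Lrrtm4. Over transcripts annotated as protein-coding the order became Nrxn3, Nlgn3, Lrrtm1, Nlgn1, Lrrtm2, Nlgn2, Lrrtm3, Lrrtm4 and Nrxn2, so the place of Nrxn2 depends on its transcripts.

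**Figure D1:**
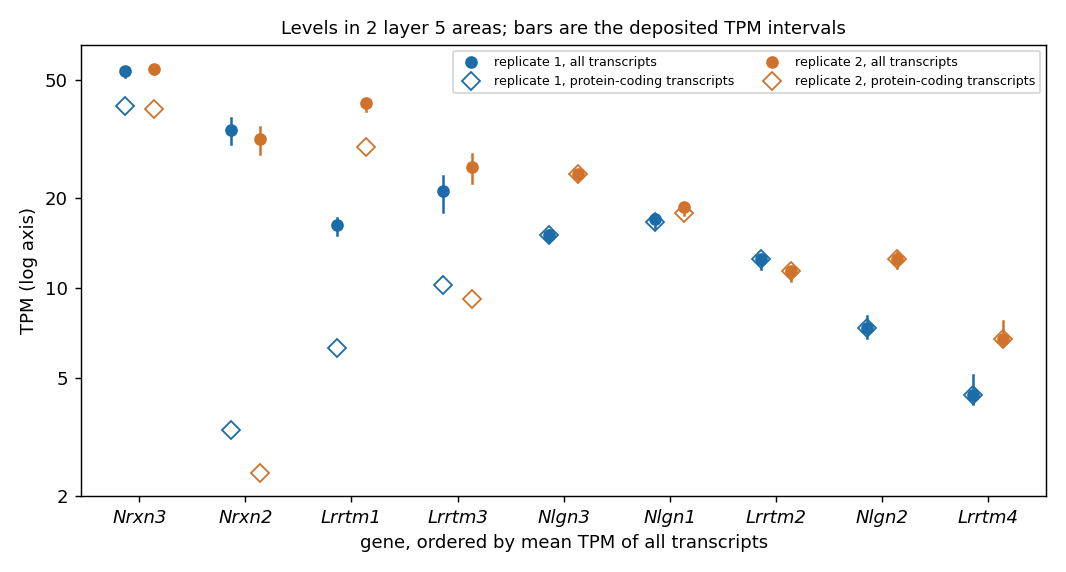
TPM of each gene (log axis) in replicate 1 (blue) and replicate 2 (orange), with filled points for all transcripts, vertical bars for the deposited TPM intervals and open diamonds for transcripts annotated as protein-coding. Nrxn3 lies at 53.3 and 54.4 TPM, and the diamonds of Nrxn2 lie at 3.33 and 2.39 TPM.

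Nrxn3 had nearly the same level in both areas and by estimate was mostly of the alpha form. The gene (ENSMUSG00000066392.7, chr12:88722876-90334935 on mm10, as are all positions, plus strand) spans 1612 kb. It had 53.3 TPM in replicate 1 and 54.4 TPM in replicate 2, a mean of 53.9 ± 0.81 TPM (SD, n = 2), from 7036 and 7701 expected counts. The libraries did not differ beyond counting error, with a ratio of counts per total of 1.01 and an exact 95% Clopper-Pearson interval from 0.976 to 1.04. Its level lay above that of 90.1% of protein-coding genes.

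The transcript Nrxn3-205, an alpha form with a coding length of 4713 bases, held 61.1% and 62.7% of the gene's expression. It was estimated at 32.5 TPM in replicate 1 and 34.1 TPM in replicate 2. The deposited intervals, whose level is not stated, ran from 30.6 to 32.6 and from 32.2 to 34.2 TPM. The next coding transcript was the beta form Nrxn3-203, at 5.58 and 4.03 TPM, below the 10% mean share used to name transcripts. Summed by class, with alpha meaning a coding length of at least 3000 bases and beta a coding start inside the gene, alpha transcripts had 33.9 and 34.9 TPM and beta transcripts 6.83 and 4.90 TPM. Alpha forms thus made up 83.2% and 87.7% of the alpha and beta sum, a mean of 85.5% ± 3.13 (SD, n = 2). Another 23.5% and 26.9% of the gene's TPM lay in 8 transcripts that this rule left unclassified, and counted in the total they lowered the alpha share to 63.7% and 64.1%.

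The division between alpha and beta rests on the bases that tell the transcripts apart. The deposited effective lengths correspond to reads taken as windows of 100 bases, and 1587 of the 7823 such windows in Nrxn3-205 occur in no other listed transcript of the gene. Of these, 1492 lie after the end of the coding sequence, so they do not show where a transcript starts. Only 95 windows of the beta form Nrxn3-203 are its own. Reads from exons that several transcripts share were divided among them by estimate.

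The windows before the annotated starts of the alpha transcript Nrxn3-205 and of the beta transcripts differ in sequence. The windows shown are the bases just before the annotated starts, on the plus strand of GRCm38.p6 and from the RefSeq promoter table, and they are shown because alpha and beta forms are defined by where they start. In the alpha window, chr12:88794444-88794503, the capitals mark the last 2 bases. In the beta window, chr12:89812233-89812482, they mark each CG.
Nrxn3-205 start: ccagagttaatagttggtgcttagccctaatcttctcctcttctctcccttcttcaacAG
Nrxn3-202 and Nrxn3-203 start: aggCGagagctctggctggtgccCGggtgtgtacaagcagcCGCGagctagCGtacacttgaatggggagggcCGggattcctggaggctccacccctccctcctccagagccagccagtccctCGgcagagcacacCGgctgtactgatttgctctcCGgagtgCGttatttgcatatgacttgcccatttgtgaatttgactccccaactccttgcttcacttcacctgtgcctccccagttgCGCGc
The first ends in AG, as 6.07% of 32851 windows of all genes do, and its start is also the start of an internal exon in 5 other Nrxn3 transcripts. In those transcripts the bases just before that exon are intron, so this window cannot be taken as a promoter. The 250 bases of the Nrxn3-205 window hold 2 CG, against 12 in the beta window and a median of 6 over all windows. These counts therefore do not compare 2 established promoters. Another alpha transcript, Nrxn3-201, starts elsewhere, at chr12:88953399. A count of 10 CG or more occurs in 37.8% of all windows. RefSeq windows were found for 6 of the 9 genes, namely Nrxn3, Nlgn1, Nlgn2, Lrrtm1, Lrrtm3 and Lrrtm4.

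The estimated use of splice site 4 differed between the long and the beta transcripts of Nrxn3, a contrast that the catalogue limits. Its exon of 90 bases, chr12:90199147-90199236, lies on the plus strand and is printed here because some partners are sorted by this insert. Capitals mark the exon, and 15 coding bases of the spliced transcript stand on either side.
Nrxn3 splice site 4: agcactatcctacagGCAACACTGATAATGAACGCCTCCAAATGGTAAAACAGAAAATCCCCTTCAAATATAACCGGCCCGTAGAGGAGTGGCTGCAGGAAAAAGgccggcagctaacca
Among transcripts that start upstream of the beta start, those with the exon had 35.7 and 37.4 TPM and those without it 2.52 and 4.27 TPM, so 93.4% and 89.7% held it. Among beta transcripts those with it had 1.25 and 0.87 TPM and those without it 5.58 and 4.03 TPM, so 18.3% and 17.8% held it. The 2 libraries gave close shares in each class, and the contrast is given for Nrxn3 alone. The catalogue limits this reading, since it lists no protein-coding transcript of Nrxn3 that starts upstream and skips the exon, and the skipping transcript there, Nrxn3-213, is annotated for nonsense-mediated decay. The deposited interval of the beta form with the exon, Nrxn3-202, ran from 0.098 to 2.90 TPM in replicate 1 and from 0.018 to 2.54 TPM in replicate 2.

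**Figure D2:**
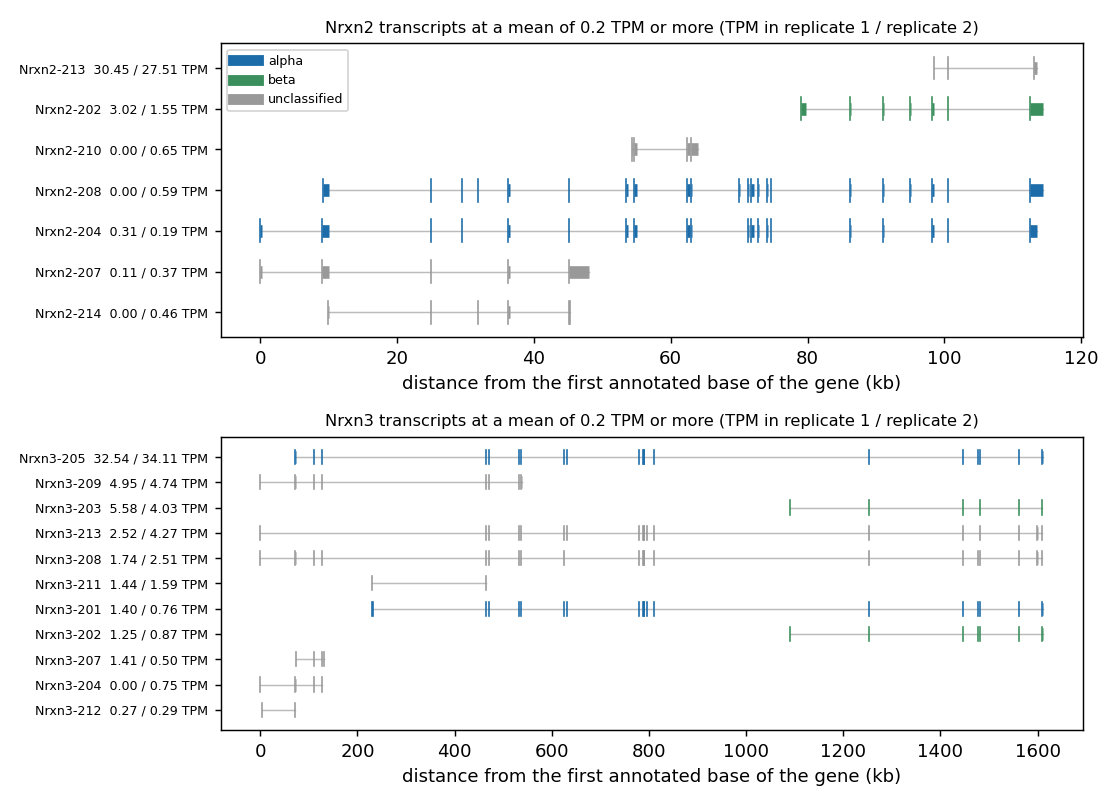
Exons (blocks and ticks) of Nrxn2 and Nrxn3 transcripts at a mean of 0.2 TPM or more, in kb from the first annotated base, with alpha in blue, beta in green and unclassified transcripts in grey. The label of each line gives TPM in replicate 1 and replicate 2, and the short Nrxn2-213 at the end of its gene carries 30.45 and 27.51 TPM.

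Nrxn2 ranked next to Nrxn3 by TPM, but nearly all of that value sat in a short transcript with no coding sequence. The gene (ENSMUSG00000033768.12, chr19:6418731-6544169, plus strand) had 33.9 and 31.6 TPM, a mean of 32.8 ± 1.61 TPM (SD, n = 2), from 579.8 and 603 expected counts. By mean CPM, counts scaled to the library total and not to length, it ranked 8 of 9, above Lrrtm4 alone. The ratio of counts per total was 1.04 (exact 95% Clopper-Pearson interval 0.930 to 1.17, counting error only), so the areas did not differ beyond counting error.

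The transcript Nrxn2-213, of 576 bases in 3 exons and annotated as a processed transcript without coding sequence, held 89.9% and 87.0% of the gene's expression. It took 53.9% and 48.4% of the gene's counts, and its short length turned 313 and 292 counts into 30.5 and 27.5 TPM. Every base of it lies in exons of protein-coding Nrxn2 transcripts, 425 of them in coding sequence, and none of its 477 windows of 100 bases is its own. Its first exons, chr19:6517205-6517248 in lower case and chr19:6519249-6519327 in capitals, both on the plus strand and coding in other transcripts, are shown because reads from them cannot separate this transcript from the coding forms.
Nrxn2-213, first 2 exons: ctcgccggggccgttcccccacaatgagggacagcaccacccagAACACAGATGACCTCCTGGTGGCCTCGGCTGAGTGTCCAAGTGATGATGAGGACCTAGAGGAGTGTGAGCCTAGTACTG
The third exon, chr19:6531844-6532296, overlaps in part the antisense gene Gm14964, which had 2.12 and 1.11 TPM. The kit's strand setting is not given in the sources used here, so reads of the pair cannot be told apart there. Over its 7 protein-coding transcripts Nrxn2 had only 3.33 and 2.39 TPM, from 257 and 229.5 counts, the lowest coding level of the 9 genes.

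The estimated alpha share of Nrxn2 differed widely between the areas but was weakly determined. Alpha transcripts had 0.31 and 0.84 TPM, from 35.8 and 112 counts, and the beta transcript Nrxn2-202 had 3.02 and 1.55 TPM, from 221.5 and 117.6 counts. The alpha share of the alpha and beta sum was 9.31% in replicate 1 and 35.1% in replicate 2, a mean of 22.2% ± 18.3 (SD, n = 2). The spread is nearly as large as the share, and only 7 of the 3404 windows of Nrxn2-202 are its own. The deposited intervals of each alpha transcript overlapped between the areas, with that of Nrxn2-208 up to 0.121 TPM in replicate 1 and from 4.0e-05 to 0.629 TPM in replicate 2. Those of Nrxn2-202 lay apart, at 2.45 to 3.32 and 1.11 to 1.93 TPM. The other listed beta transcript, Nrxn2-203, had 0 counts in both areas.

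**Figure D3:**
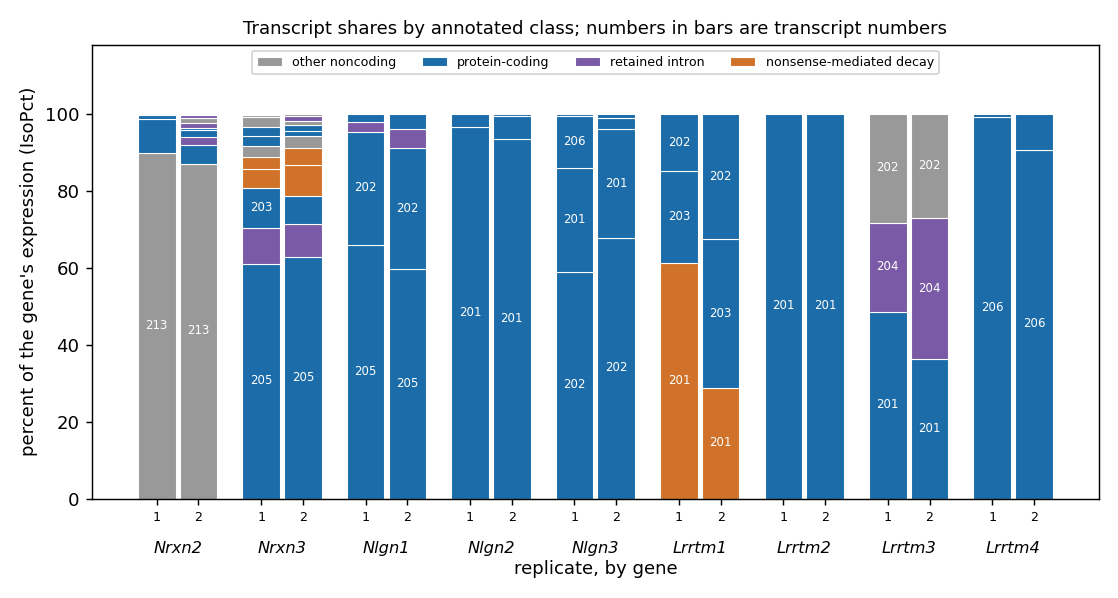
Percent of each gene's expression held by its transcripts in replicates 1 and 2, coloured by annotated class, with the transcript number printed in bars of 10% or more. Nrxn2-213 fills 89.85% and 87.03% of its bars, and Lrrtm1-201 holds 61.34% and 28.71%.

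Neuroligin levels ranked differently in the 2 areas. The 3 genes summed to 39.4 TPM in replicate 1 and 55.4 TPM in replicate 2. Nlgn1 held 43.4% of that sum in replicate 1 and 33.8% in replicate 2, Nlgn3 held 38.1% and 43.6%, and Nlgn2 held 18.6% and 22.5%. Nlgn2 was thus the lowest in both areas, and Nlgn1 and Nlgn3 exchanged places.

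Nlgn1, the neuroligin of excitatory synapses (ENSMUSG00000063887.9, chr3:25426215-26332460, minus strand), had 17.1 and 18.8 TPM, a mean of 17.9 ± 1.17 (SD, n = 2), from 3343 and 3579 counts. By counts per total the sign turned, with replicate 1 higher at 1.01-fold (0.967 to 1.06), which counting error covers. Its transcript Nlgn1-205, which carries both known inserts, had 11.3 and 11.2 TPM (65.9% and 59.7% of the gene). Nlgn1-202, which carries neither, had 5.04 and 5.87 TPM (29.5% and 31.3%).

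The inserts of Nlgn1 are a cassette exon of 60 bases at splice site A, chr3:25920178-25920237, and a lengthened exon of 27 bases at splice site B, chr3:25439865-25439891, both on the minus strand. Each is read 5′ to 3′ from the spliced transcript, with the insert in capitals, since these inserts set how neuroligin 1 pairs with neurexins.
Nlgn1 splice site A: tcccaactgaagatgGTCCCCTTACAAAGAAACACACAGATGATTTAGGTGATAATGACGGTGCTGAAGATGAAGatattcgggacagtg
Nlgn1 splice site B: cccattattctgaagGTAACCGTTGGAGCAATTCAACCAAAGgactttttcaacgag
Transcripts with the inserts made up 67.5% of coding Nlgn1 TPM in replicate 1 and 62.9% in replicate 2. The 2 inserts have the same shares because every listed transcript holds both or neither, so these tables cannot show forms with a single insert. Of 6186 windows held by Nlgn1-205 alone, 5596 lie after its coding sequence and none touches it, since Nlgn1-201, which had 0 counts in both areas, also carries the inserts. Nlgn1-202 has no window of its own. The processed pseudogene Gm6197, inside the gene on the other strand, had 11.1 and 5.00 TPM.

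Nlgn2, the neuroligin of inhibitory synapses (ENSMUSG00000051790.11, chr11:69823122-69837784, minus strand), was lower in replicate 1. It had 7.32 TPM from 776 counts there and 12.5 TPM from 1363 counts in replicate 2, a mean of 9.90 ± 3.65 (SD, n = 2). The deposited intervals, 6.79 to 8.06 and 11.7 to 13.2 TPM, did not overlap, and the ratio of counts per total was 1.62 (exact Clopper-Pearson 1.48 to 1.77). Nlgn2-201 held 96.5% and 93.5% of it.

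Nlgn3, found at both kinds of synapse (ENSMUSG00000031302.12, chrX:101299168-101325963, plus strand), went the same way. It had 15.01 TPM from 2606 counts in replicate 1 and 24.2 TPM from 4298 counts in replicate 2, a mean of 19.6 ± 6.49 (SD, n = 2), with intervals from 14.2 to 15.6 and from 23.1 to 24.7 TPM. The ratio of counts per total was 1.52 (1.45 to 1.60). Nlgn3-202, with a coding length of 2133 bases, held 58.9% and 67.6%, and Nlgn3-201, with 2475 bases, held 27.1% and 28.3%. This split is weakly determined, since Nlgn3-201 has no window of its own and Nlgn3-202 has 103 of 7905. The deposited intervals of Nlgn3-201 ran from 0.281 to 5.66 TPM in replicate 1 and from 3.79 to 8.72 TPM in replicate 2. The noncoding gene Gm21986 on the same strand shares 39.4% of the windows of Nlgn3 and had 0.18 and 0 TPM.

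Splice site A was filled in nearly all of the estimated TPM of listed Nlgn2 and Nlgn3 transcripts, a share that the catalogue limits. The Nlgn2 exon of 51 bases, chr11:69830563-69830613 on the minus strand, the Nlgn3 exon of 60 bases, chrX:101307075-101307134 on the plus strand, and a second Nlgn3 exon of 60 bases upstream of it, chrX:101303072-101303131, are printed for comparison with the Nlgn1 insert, with the exons in capitals.
Nlgn2 exon: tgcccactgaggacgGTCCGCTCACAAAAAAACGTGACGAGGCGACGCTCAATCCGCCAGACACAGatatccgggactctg
Nlgn3 exon: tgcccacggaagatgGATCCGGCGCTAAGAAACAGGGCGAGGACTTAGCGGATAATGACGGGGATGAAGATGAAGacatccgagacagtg
Nlgn3 upstream exon: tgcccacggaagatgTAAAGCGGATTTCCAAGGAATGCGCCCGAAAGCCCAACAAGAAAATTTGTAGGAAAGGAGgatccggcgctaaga
The Nlgn2 exon was in 100% and 99.4% of the TPM of transcripts that span it, and the Nlgn3 exon in 99.5% and 98.9%. Each was skipped in a single listed transcript, Nlgn2-203 of 784 bases at 0 and 0.08 TPM and Nlgn3-203 of 1852 bases at 0.08 and 0.26 TPM. No longer listed transcript skips either exon, so these shares cannot show long forms that lack it. The upstream Nlgn3 exon was in 13.4% and 2.94%, through Nlgn3-206 at 2.02 and 0.71 TPM. Its deposited intervals, 0.662 to 4.73 and 0.00012 to 2.54 TPM, overlapped, so a difference between the areas was not established.

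**Figure D4:**
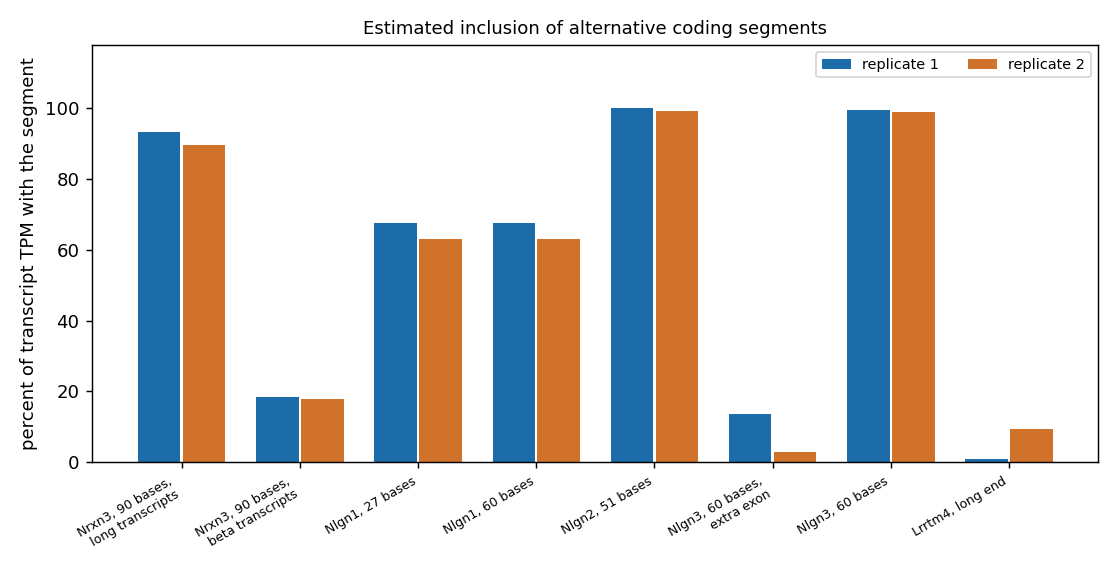
Percent of the TPM of spanning transcripts that holds each alternative coding segment, in replicate 1 (blue) and replicate 2 (orange), with the long end of Lrrtm4 as a percent of the gene. The estimate for the splice site 4 exon of Nrxn3 stands at 93.4% and 89.7% in long transcripts and at 18.3% and 17.8% in beta transcripts. The listed transcripts limit this contrast.

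The LRRTM genes, single-pass postsynaptic proteins with leucine-rich repeats, summed to 54.2 and 85.2 TPM. Lrrtm3 led in replicate 1 with 38.9% of that sum and Lrrtm1 in replicate 2 with 48.9%. The leader in replicate 1 depended on the measure, since Lrrtm2 led there over protein-coding transcripts, with 12.5 TPM against 10.3 TPM for Lrrtm3, and in expected counts, with 37.5% against 28.6% of the sum. Lrrtm4 was the lowest in both, at 8.06% and 7.92%. Lrrtm1, Lrrtm2 and Lrrtm3 each lie inside an alpha-catenin gene on the opposite strand. Ctnna2, around Lrrtm1, had 23.9 and 22.1 TPM, Ctnna1, around Lrrtm2, had 7.42 and 7.24 TPM, and Ctnna3, around Lrrtm3, had 0.82 and 1.17 TPM.

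Lrrtm1 (ENSMUSG00000060780.2, chr6:77242689-77257791, plus strand) differed most between the areas among the 9 genes. It had 16.3 TPM from 943 counts in replicate 1 and 41.7 TPM from 2367 counts in replicate 2, a mean of 28.98 ± 17.95 (SD, n = 2). Its log2 ratio of TPM + 1, replicate 1 over replicate 2, was -1.30, and counts per total were 2.31-fold higher in replicate 2 (exact 95% Clopper-Pearson interval 2.14 to 2.50). It was the only gene of the 9 beyond 2-fold, where 10.3% of the 11841 protein-coding genes averaging at least 1 TPM were beyond 2-fold and 5.31% were so in the direction of replicate 2. In bulk RNA, fewer cells of a type and less RNA per cell cannot be told apart.

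The Lrrtm1 difference lay in 2 of its 3 named transcripts. Lrrtm1-203 had 3.86 TPM in replicate 1 and 16.1 TPM in replicate 2. Lrrtm1-202 had 2.43 and 13.6 TPM. Their deposited intervals did not overlap between the areas, at 2.15 to 5.71 against 13.0 to 19.2 TPM for Lrrtm1-203 and 0.463 to 4.46 against 9.29 to 15.9 TPM for Lrrtm1-202. Lrrtm1-201, annotated for nonsense-mediated decay and set apart by an exon of 480 bases after the coding sequence, had 9.98 and 12.0 TPM with overlapping intervals (8.24 to 11.1 and 9.83 to 13.8). All 3 have the same coding length of 1566 bases. Over protein-coding transcripts alone the log2 ratio was -2.07. Lrrtm1-202 and Lrrtm1-203 have 6 and 101 windows of their own, so their split is weakly determined, whereas Lrrtm1-201 has 488.

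Lrrtm2 and Lrrtm3 were close in the 2 areas. Lrrtm2, with a single listed transcript (ENSMUSG00000071862.2, chr18:35209003-35215024, minus strand), had 12.5 TPM from 1495 counts and 11.4 TPM from 1409 counts, a mean of 11.9 ± 0.78 (SD, n = 2). Its counts per total were 1.15-fold higher in replicate 1 (exact Clopper-Pearson 1.07 to 1.24), while its deposited TPM intervals overlapped. Lrrtm3 (ENSMUSG00000042846.8, chr10:63928472-64090277, minus strand) had 21.1 TPM from 1139 counts and 25.4 TPM from 1329 counts, a mean of 23.3 ± 3.04 (SD, n = 2), and its counts per total were 1.08-fold higher in replicate 2 (0.993 to 1.16).

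Only part of the Lrrtm3 value was coding. Lrrtm3-201, its sole protein-coding transcript, had 10.3 and 9.21 TPM (48.6% and 36.3% of the gene). The retained-intron transcript Lrrtm3-204 had 4.85 and 9.32 TPM, with intervals of 3.56 to 5.997 and 7.72 to 10.5 TPM that lay apart. The noncoding Lrrtm3-202, of 545 bases, had 5.99 and 6.88 TPM from 57.5 and 68.2 counts. The higher Lrrtm3 level in replicate 2 was assigned to the noncoding transcripts, and over the coding transcript alone the log2 ratio turned from -0.26 to 0.14. This assignment is limited by overlap. Exons of the coding transcript hold 85.5% of the bases of Lrrtm3-204, 1539 of them coding there, and 352 of its 2326 windows are its own. For Lrrtm3-202 the overlap is 99.4%.

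Lrrtm4, the glypican-binding member (ENSMUSG00000052581.9, chr6:80018877-80810143, plus strand), was the lowest of the 9. It had 4.37 TPM from 407 counts in replicate 1 and 6.75 TPM from 632 counts in replicate 2, a mean of 5.56 ± 1.68 (SD, n = 2). The deposited intervals lay apart (4.09 to 5.10 and 6.38 to 7.73 TPM), and counts per total were 1.43-fold higher in replicate 2 (exact Clopper-Pearson 1.26 to 1.62). Its coding sequence has 2 ends, a short end in Lrrtm4-206 and a long end in Lrrtm4-208 that uses a last coding exon 786 kb downstream, chr6:80808968-80809186. The sequences show 30 shared coding bases in lower case, up to chr6:80023160 on the plus strand, and the coding bases particular to each end in capitals.
Lrrtm4-206: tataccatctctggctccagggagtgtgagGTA
Lrrtm4-208: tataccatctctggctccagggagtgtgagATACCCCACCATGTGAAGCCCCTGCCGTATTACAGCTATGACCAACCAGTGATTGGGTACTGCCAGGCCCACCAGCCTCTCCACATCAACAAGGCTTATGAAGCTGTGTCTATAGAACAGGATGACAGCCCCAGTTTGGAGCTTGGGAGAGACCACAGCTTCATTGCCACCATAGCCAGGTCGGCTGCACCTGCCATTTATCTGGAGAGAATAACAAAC
The short end adds 3 bases before the stop codon and the long end 219. The short-ended Lrrtm4-206 held 99.2% and 90.7% of the gene, at 4.34 and 6.12 TPM. Lrrtm4-208 had 0.03 TPM from 2.08 counts in replicate 1 and 0.63 TPM from 41.1 counts in replicate 2. Its deposited intervals, up to 0.082 and from 0.073 TPM, overlapped narrowly.

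Across the 9 genes the TPM values of all transcripts leaned to replicate 2. By TPM 7 of 9 were higher there, against 54.0% of the protein-coding genes that averaged at least 1 TPM, and by counts per total 6 of 9, with Nlgn1 on the other side. The median log2 ratio was -0.26, and that of the protein-coding genes was -0.05. Deposited intervals lay apart for 4 genes, Nlgn2, Nlgn3, Lrrtm1 and Lrrtm4, while 59.6% of those protein-coding genes had intervals apart, so a difference beyond the interval was common among all genes. Over protein-coding transcripts 5 of 9 were higher in replicate 2, and the median log2 ratio was -0.09. The share over all genes was not computed for counts per total or for protein-coding transcripts, so those numbers show no lean of their own.

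**Figure D5:**
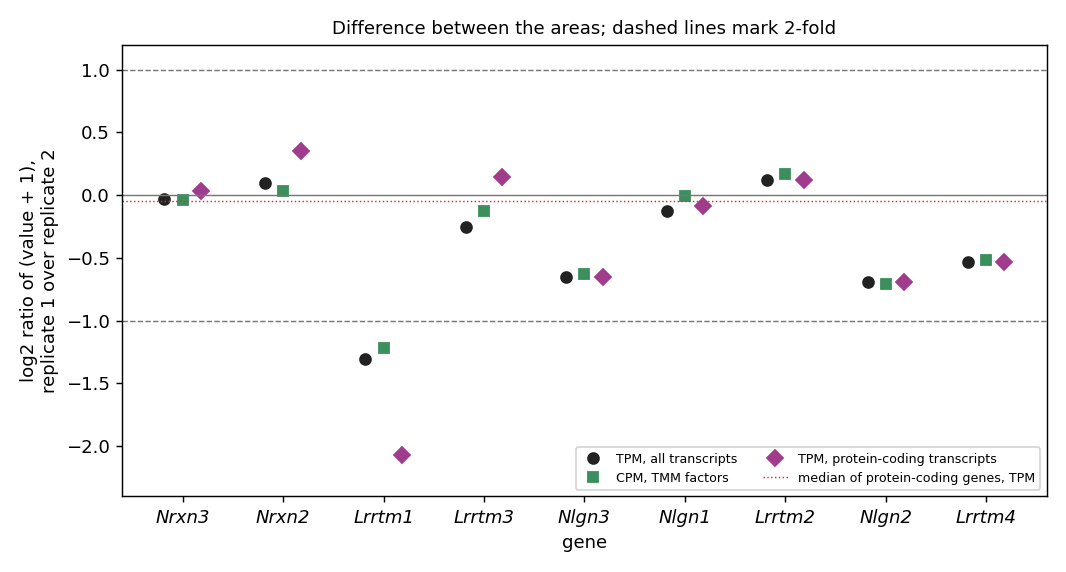
Log2 ratio of value + 1, replicate 1 over replicate 2, for each gene, from TPM of all transcripts (circles), CPM with TMM factors (squares) and TPM of protein-coding transcripts (diamonds). Only Lrrtm1 lies beyond the dashed 2-fold lines, at -1.30 by TPM, and Lrrtm3 changes sign over protein-coding transcripts.

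Markers of several cell classes also differed between these areas. The 3 neuronal markers summed to 6453 and 7651 TPM and the 3 excitatory markers to 281 and 409 TPM, all 6 higher in replicate 2, with median log2 ratios of -0.51 and -0.57. The 4 oligodendrocyte markers summed to 435 and 710.1 TPM, all higher in replicate 2. The 3 microglial markers, all higher in replicate 1, summed to 69.4 and 18.4 TPM. The 3 GABAergic markers summed to 466 and 100.4 TPM. Gad1, an enzyme of GABA synthesis, at 438 and 65.2 TPM, differed by slightly more than that sum did. Slc32a1, the vesicular GABA transporter, had 4.43 and 3.40 TPM, while Gad2, the other synthesis enzyme, was higher in replicate 2 (23.9 and 31.8 TPM). The layer 5 markers summed to 2971 and 3654 TPM, almost all of it Pcp4 (2922 and 3599 TPM), and Bcl11b alone of these 4 was higher in replicate 1 (10.99 and 6.91 TPM). The endothelial markers summed to 15.4 and 7.89 TPM, with Pecam1 the other way (1.28 and 2.32 TPM). The astrocyte markers summed to 106 and 107 TPM and the oligodendrocyte precursor markers to 1.02 and 0.83 TPM, and no defining marker was at 0 in both libraries. Their part in the differences of Lrrtm1, Nlgn2, Nlgn3 and Lrrtm4 was not tested.

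Genes of the surrounding pathway were largely present. Of 79 genes in 8 lists of ligands, receptors, scaffolds and regulators, 64 (81.0%) reached 1 TPM in both areas, where the share of all protein-coding genes was 51.5%. Of the 67 that averaged at least 1 TPM, 4 were beyond 2-fold between the areas, against the background of 10.3%. The median log2 ratio over the lists was -0.12.

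Partners outside the cell were uneven. Of the 12 secreted ligands and bridges 4 reached 1 TPM in both areas, led by the cerebellin Cbln2, which binds neurexins with the splice site 4 insert, at 113 and 135 TPM, and the alpha-neurexin ligand Nxph1 at 26.8 and 42.2 TPM. All 9 other surface partners did, led by the calsyntenins Clstn1, at 139 ± 23.3 TPM (SD, n = 2), and Clstn3 at 45.2 ± 2.65 TPM. Of 6 glypicans, heparan sulfate proteoglycans that pair with Lrrtm4, 4 did, led by Gpc1 at a mean of 15.7 TPM and Gpc5 at 9.08 TPM.

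Partners inside the cell and regulators were detected almost throughout. Of 7 neuroligin regulators and tail partners 6 reached 1 TPM in both areas, among them Gphn, the gephyrin scaffold of inhibitory synapses, at a mean of 20.8 TPM. All 5 neurexin tail partners did, led by the adaptor Lin7b at 281 TPM and the scaffold Cask at 26.6 TPM. All 3 splice site 4 regulators of the KHDRBS family did, with Khdrbs3 at 42.6 TPM and Khdrbs1 at 24.7 TPM. Of 4 shedding enzymes 3 did, among them Adam10 at 18.4 TPM. Of 33 genes of other synaptic adhesion families 30 did, led by the receptor phosphatase gene Ptprd at 87.0 TPM and Cadm2 at 67.7 TPM, both above the mean of every gene of the 9.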

How the data were processed

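RNA-seq of 2 layer 5 areas, 1 group, was analysed from the deposited gene and transcript tables. The authors gave per feature an expected count, an estimate that divides reads among features, and TPM scaled over all features of a library, with deposited interval bounds of the TPM whose level is not stated. They also gave IsoPct, the deposited percent of a gene's expression per transcript. Per the deposited text files, reads were placed on mm10 with annotation M4. The sources used here do not give the aligner, quantifier or strand setting.

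The 9 members, lists, markers and rules were chosen with earlier results of these data known. Named were all members, transcripts with a mean IsoPct of 10 or more, the 2 highest genes of each partner list (some of these, and a sequence, are not reported here) and annotated genes that overlap a member where they had counts. Other transcripts were given where a class or segment rests on them, and were chosen after their values were seen. Symbols, coordinates and coding sequences came from GENCODE M21 on GRCm38, the same assembly, where 58 of the 60 listed transcripts had the deposited length. Nonsense-mediated decay transcripts were left out of the alpha class. Segment shares used transcripts of the protein-coding and decay classes that span the segment.

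Ratios were log2(TPM + 1), which understates changes of low genes. Intervals of count ratios were exact Clopper-Pearson at 95% on rounded counts and cover counting error only, since reads carry no molecular identifiers. With 1 library a side no p-value was computed. Scaling alternatives used TMM factors from edgeR 4.0.16 and size factors from DESeq2 1.42.0. Tested on simulated data for the 2 replicates over 11841 genes with counting error only, the procedure placed 99.5% of 200 genes changed 4-fold beyond 2-fold. It placed 0.0086% of unchanged genes there, while 10.3% of the measured genes were beyond 2-fold. The simulation thus leaves out the spread between areas, and smaller changes were not simulated.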

Additional observations from a re-analysis of the deposited data

How the results depend on the processing

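Of 75 recomputed values of the 17 main results, 61 stayed within their limits and 14 moved. For levels, shares and the median log2 ratio the limit was an SD from the 2 libraries. Alpha and family shares without either replicate lie within that SD by construction. Leaving out a library also cannot lower the number of genes at 1 TPM. The tally therefore does not measure how stable the results are. Over protein-coding transcripts the log2 ratio changed sign for Nrxn3 (-0.03 to 0.03) and Lrrtm3 (-0.26 to 0.14), so 5 of the 9 genes in place of 7 were higher in replicate 2. Under the other settings that number stayed at 7. The median level of the 9 genes was 19.6 TPM. It was 25.4 TPM over nuclear genes alone and 11.9 TPM over protein-coding transcripts, an alternative chosen after seeing the data. Of the 9 places in the order, 2 were kept by CPM, 2 by protein-coding transcripts and 5 without either replicate. Kept in the total, unclassified transcripts gave a mean alpha share of 1.79% for Nrxn2 and 63.9% for Nrxn3, and expected counts gave 94.2% for Nrxn3. By expected counts the family shares were 13.1% for Nlgn2, 31.0% for Lrrtm2, 25.9% for Lrrtm3 and 10.6% for Lrrtm4, and posterior mean TPM gave 8.44% for Lrrtm4. Lrrtm1 was the only gene of the 9 beyond 2-fold under all 6 other settings. The share of protein-coding genes beyond 2-fold was 10.3%, and 6.10% among those averaging at least 5 TPM. The cause of these shifts was not tested beyond what the settings fix by construction, namely length for counts and fewer transcripts for the coding sum. No paired analysis was possible because there was 1 group. Of the named transcripts, Nrxn2-213, Nlgn1-202 and Nlgn3-201 have no distinguishing window. Estimated counts of the rare forms Nrxn2-208 (0 and 81.5 counts) and Lrrtm4-208 (2.08 and 41.1 counts) differed between the libraries. The deposited TPM intervals of both forms overlapped, that of Lrrtm4-208 only narrowly. Such overlap does not show that the areas were alike in them. The cause was not tested.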
